A study of Mus musculus with 6 samples.

Results

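The 10 genes described here encode chemokine ligands: Ccl2, Ccl7, Ccl5, Ccl20, Cxcl1, Cxcl5, Cxcl10, Cxcl12, Cxcl16 and Cx3cl1. They were chosen by name and are 10 of the 43760 gene rows of the deposited table. RNA was sequenced from 3T3-L1, a clonal mouse fibroblast line able to become adipocytes in culture, labelled wild type in both groups. The 3 day 7 libraries came from cells taken through adipogenic differentiation with IBMX, insulin, dexamethasone and rosiglitazone (spelled roziglitazone in the labels). The 3 day 0 libraries came from cells harvested with no differentiation. The drugs, the differentiation and the days in culture change together, so their effects cannot be told apart, and a single cell line stands for the whole process. Nothing in the labels ties the libraries to separate cultures, and the p-values therefore reflect the spread among 6 libraries that could be technical repeats.

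Chemokines are small secreted proteins that bind G protein-coupled receptors and draw leukocytes along a gradient. Their families are named for the first cysteines of the mature protein, which are adjacent in CC ligands, 1 residue apart in CXC ligands and 3 residues apart in CX3C ligands. In adipose tissue, preadipocytes and other stromal cells are known sources of chemokines, and Ccl2 in particular has been studied as a signal that draws monocytes into the tissue. Many chemokine genes are induced through NF-kB, the transcription factor of inflammatory signalling, or through interferon-activated factors.

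The family signature can be read in the coding sequences, taken from GENCODE M21 transcripts, 5′ to 3′, with 2 cysteine codons in capitals. These are the first, past the signal peptide region, with the spacing that the gene's name implies. The spacing was thus set by the names, which give 4 CC ligands, 5 CXC ligands and 1 CX3C ligand. The stretches are shown to illustrate the naming and do not test it.
Ccl2: gccccactcaccTGCTGCtactcattc
Ccl7: aatgcatccacaTGCTGCtatgtcaag
Ccl5: gacaccactcccTGCTGCtttgcctac
Ccl20: agcaactacgacTGTTGCctctcgtac
Cxcl1: aatgagctgcgcTGTcagTGCctgcagacc
Cxcl5: acggagctgcgtTGTgttTGCttaaccgta
Cxcl10: aggacggtccgcTGCaacTGCatccatatc
Cxcl12: ctgagctaccgaTGCcccTGCcggttcttc
Cxcl16: gtcgctggaagtTGTtctTGTgatcgtacc
Cx3cl1: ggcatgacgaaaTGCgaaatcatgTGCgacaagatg
The cysteine codons touch in Ccl2, Ccl7, Ccl5 and Ccl20. A single codon parts them in Cxcl1, Cxcl5, Cxcl10, Cxcl12 and Cxcl16, and 3 codons part them in Cx3cl1.

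Library totals were 7655822 to 16987076 estimated counts at day 7 and 10805962 to 14132016 at day 0. Levels are given as CPM, counts relative to library size, after TMM scaling, and genes were tested with edgeR's quasi-likelihood test with Benjamini-Hochberg adjustment over the 12354 genes that passed a filter on low counts, with a threshold of 0.05. All 10 adipocyte markers examined were higher at day 7, with a summed level of 13014 to 16338 CPM at day 7 and 527 to 566 CPM at day 0. The 3 day 7 columns carry the same replicate number in the file and are told apart by their place in the file, as the first, the second or the third column. The third column stood apart from the other two day 7 columns on the second axis of a multidimensional scaling plot (10.7% of the variance), at 1.81 against -0.62 and -0.99. On the first axis (79.7%), which parted the days, the third column was the day 7 library nearest to day 0. It lay at 2.031 there, against 2.685 and 2.481, with the day 0 libraries at -2.444 to -2.359. It also has the lowest total, and each tested ligand is therefore given with and without it.

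All 10 ligands had lower levels in every day 7 library than in any day 0 library. Of the 9 that passed the filter, 6 were called lower at day 7 (Ccl2, Ccl7, Cxcl5, Cxcl12, Cxcl16 and Cx3cl1), none was called higher (background 30.8%), and 3 did not pass the test (Ccl5, Cxcl1 and Cxcl10). The background is high: 29.2% of all tested genes were called lower, and in 34.1% every day 7 library was below every day 0 library. The median log2 fold change was -2.73 over the 9 tested ligands and 0.02 over all tested genes. Without the third day 7 column, 9 of 9 were called lower, with a median of -5.50 (-5.34 with Cxcl16 at its bound), against a background of 31.8%. The number called lower was 5 with DESeq2 (background 28.6%), 9 with total-count scaling (32.6%), 9 with limma-voom (30.7%) and, out of 10, all 10 with no filter on low counts (18.2%). Of all genes called, 51.3% were higher under TMM scaling and 36.9% under total-count scaling, which moved the median of all genes to -0.21. In bulk RNA, fewer cells expressing a ligand and less RNA per cell cannot be told apart. The 10 levels summed to 94.0, 128 and 684 CPM in the 3 day 7 columns in file order, against 2859, 2778 and 3232 CPM in the day 0 libraries.

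**Figure D1:**
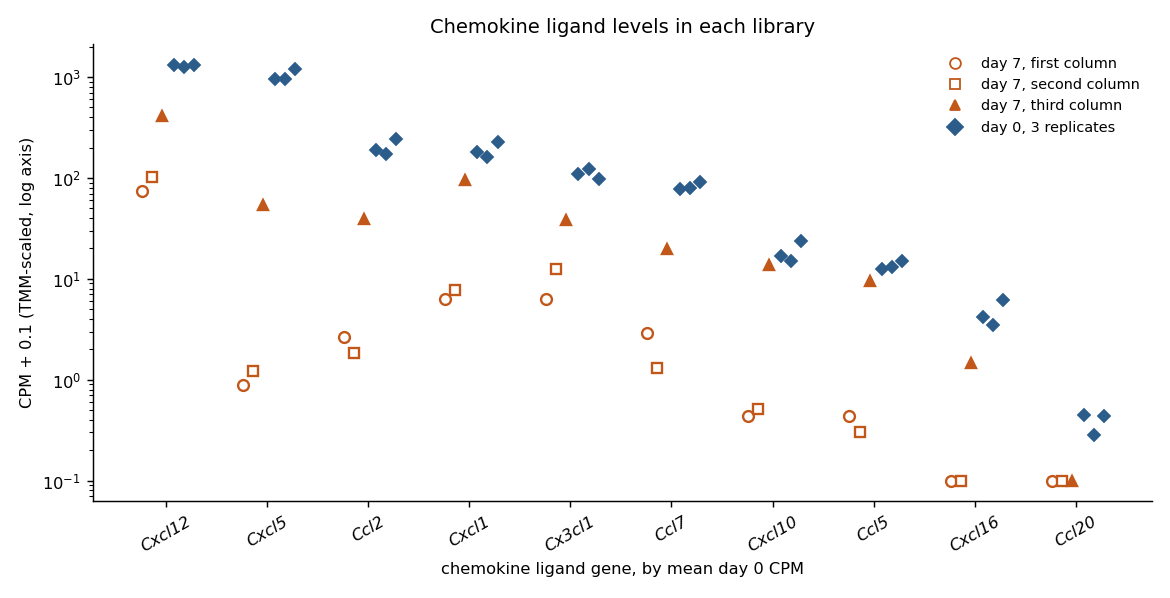
Level of each of the 10 chemokine ligands in every library, as TMM-scaled CPM + 0.1 on a log axis, with day 7 left of day 0 and a symbol for each day 7 column. For every gene the day 7 points lie below the day 0 points, and the third column is the highest day 7 point for the 9 tested ligands, such as Cxcl5 at 53.8 CPM against 0.793 and 1.12 CPM in the other day 7 columns.

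Ccl2 and Ccl7 are ligands of Ccr2, the receptor through which monocytes leave the marrow and enter tissue, and Ccl7 also binds other CC receptors. Ccl2 (chr11:82035571-82037453, plus strand, GRCm38) was at 2.55, 1.73 and 38.7 CPM in the 3 day 7 columns, against 187, 171 and 244 CPM in the day 0 libraries. The first and second columns held 1.27% and 0.863% of the day 0 mean and the third held 19.3%, still below every day 0 library. Ccl2 averaged 14.3 ± 21.1 CPM at day 7 and 201 ± 38.7 CPM at day 0 (SD, n = 3 each), a log2 fold change of -3.90 ± 1.02 (SE; edgeR adjusted p = 0.012). Without the third column the log2 fold change was -6.49 (edgeR adjusted p = 1.9e-06), or 89.7-fold lower, against 14.9-fold lower with it. Ccl7 (chr11:82045712-82047525, plus strand) lies 8.26 kb downstream of Ccl2. Its levels were 2.83, 1.22 and 19.7 CPM at day 7, against 78.1, 79.1 and 91.6 CPM at day 0. The pattern over libraries was that of Ccl2, with the third column the highest day 7 value and no overlap between days. Ccl7 fell, with a log2 fold change of -3.53 ± 0.78 (edgeR adjusted p = 0.0053), and of -5.23 (adjusted p = 3.7e-06) without the third column.

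Cxcl1 and Cxcl5 are ligands of Cxcr2, the receptor that draws neutrophils. Cxcl5 (chr5:90759360-90761624, plus strand) was the ligand that differed most between the days. It was at 0.793, 1.12 and 53.8 CPM at day 7, against 950, 949 and 1213 CPM at day 0. The first and second columns were near 1 CPM, and the third column was 56.2 times their mean. Cxcl5 averaged 18.6 ± 30.5 CPM at day 7 and 1038 ± 152 CPM at day 0 (SD, n = 3 each), a 58.4-fold lower fitted level with a log2 fold change of -5.87 ± 1.46 (edgeR adjusted p = 0.0093). Without the third column the level was 1117-fold lower (log2 fold change -10.13, edgeR adjusted p = 9.1e-07), and without the first the log2 fold change was -5.27. Cxcl1 (chr5:90891241-90893115, plus strand) was at 6.23, 7.63 and 95.9 CPM at day 7, against 180, 160 and 226 CPM at day 0. Here the third column held 50.9% of the day 0 mean, while the first and second held 3.31% and 4.05%. The log2 fold change of -2.40 ± 0.95 did not pass the test (edgeR adjusted p = 0.059). It passed without the third column (log2 fold change -4.78, adjusted p = 2.6e-06) and with total-count scaling (adjusted p = 0.018). It did not pass with DESeq2 (adjusted p = 0.07). Without the first column the log2 fold change was -1.89 (edgeR adjusted p = 0.1), and without the second -1.92 (adjusted p = 0.13). Leaving out any single day 0 replicate gave an edgeR adjusted p of 0.1 to 0.14.

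Cxcl12 is the ligand of Cxcr4 and of the scavenging receptor Ackr3, and is known for holding blood stem cells and B cell precursors in marrow stroma. Cxcl12 (chr6:117168535-117181367, plus strand) was at 74.8, 103 and 413 CPM at day 7, against 1321, 1266 and 1316 CPM at day 0. The day 0 libraries were close together, and all 3 day 7 columns lay well below them. Cxcl12 averaged 197 ± 188 CPM at day 7 and 1301 ± 30.4 CPM at day 0 (SD, n = 3 each), with a log2 fold change of -2.73 ± 0.61 (edgeR adjusted p = 0.0059). Without the third column it was 14.7-fold lower (log2 fold change -3.87, edgeR adjusted p = 3.6e-06), against 6.62-fold with it. Cxcl12 made up 44.1%, 52.7% and 23.5% of the 10 ligands' summed level per kilobase in the 3 day 7 columns, against an average of 14.0% at day 0. Cxcl5 made up 2.05%, 2.52% and 13.4% in the day 7 columns, against an average of 48.4% at day 0. The day 7 averages were 40.1% for Cxcl12 and 6.0% for Cxcl5, and 48.4% and 2.29% without the third column.

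Cx3cl1 and Cxcl16 are made as membrane-anchored proteins that hold cells carrying Cx3cr1 or Cxcr6, and are released as soluble chemokines when cut. Cx3cl1 (chr8:94772009-94782427, plus strand) was at 6.18, 12.5 and 37.9 CPM at day 7, against 109, 122 and 96.4 CPM at day 0. The 3 day 7 columns were spread widely, and none reached the lowest day 0 library. Its log2 fold change was -2.59 ± 0.56 (edgeR adjusted p = 0.0051), and -3.60 (adjusted p = 3e-05) without the third column. Cxcl16 (chr11:70453983-70459984, minus strand) had 0 counts in the first and second day 7 columns and 10 counts in the third, against 47, 55 and 73 counts at day 0. It was therefore detected in a single day 7 library. In CPM it was at 0, 0 and 1.36 at day 7, against 4.12, 3.42 and 6.09 at day 0, with a log2 fold change of -3.81 ± 0.95 (edgeR adjusted p = 0.0096). The call was lost with DESeq2 (adjusted p = 0.14). Without the third column Cxcl16 was at least 40.6-fold lower, taking 3 counts over the day 7 group as the floor, and without the first column its log2 fold change was -2.89 (edgeR adjusted p = 0.022).

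Cxcl10 is an interferon-induced ligand of Cxcr3, and Ccl5 a ligand of Ccr1 and Ccr3 among others, and both draw T cells. Cxcl10 (chr5:92346638-92348889, minus strand) was at 0.34, 0.407 and 13.6 CPM at day 7, against 16.6, 14.8 and 23.4 CPM at day 0. Ccl5 (chr11:83525778-83530518, minus strand) was at 0.34, 0.204 and 9.50 CPM at day 7, against 12.5, 13.0 and 14.9 CPM at day 0. For both genes the third column came close to the day 0 range without entering it, at 74.3% of the day 0 mean for Cxcl10 and 70.5% for Ccl5. The log2 fold changes of -2.14 ± 1.05 for Cxcl10 and -2.25 ± 1.0 for Ccl5 did not pass edgeR's test (adjusted p = 0.12 and 0.085). Without the third column they were -5.60 and -5.50 (edgeR adjusted p = 1.1e-05 and 4.1e-06), and with total-count scaling the adjusted p was 0.049 and 0.032. Without the first column they were -1.46 and -1.57 (edgeR adjusted p = 0.20 and 0.17), and DESeq2 gave an adjusted p of 0.25 and 0.23.

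Ccl20, the ligand of Ccr6, was almost undetected. Ccl20 (chr1:83116766-83119167, plus strand) had 0 counts in every day 7 library, against 4, 3 and 4 counts at day 0. It failed the filter on low counts and was not among the genes tested. An exact two-sided permutation test over its 6 levels gave p = 0.1, the smallest that 3 libraries against 3 allow. With a floor of 3 counts over the day 7 group, its level was at least 3.23-fold lower than at day 0, and counting error alone makes this bound loose.

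**Figure D2:**
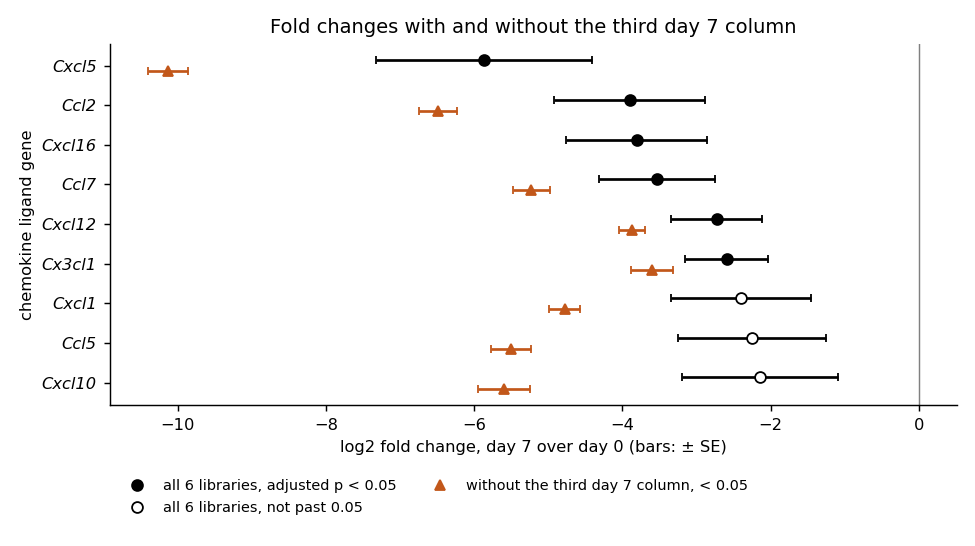
Log2 fold change at day 7 over day 0 of the 9 tested ligands, with bars of 1 SE, from all 6 libraries and, as triangles, without the third day 7 column. Leaving out that column moves every drawn ligand further from 0, such as Cxcl5 to -10.13 against -5.87 with all libraries, and Cxcl16 has no triangle because its remaining day 7 counts are 0.

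In all 9 tested ligands the third day 7 column was more than 3 times the mean of the other two day 7 columns. Its level was between 4.05 times (Cx3cl1) and 56.2 times (Cxcl5) the mean of the other two columns for the 8 ligands with counts there, and Cxcl16 was found in the third column alone. Over all tested genes, 2.63% were in the third column at least 3 times the mean of the other two, and among genes called lower at day 7 the share was 5.65%. Genes past that ratio include Ifit1 (2.38, 2.85 and 31.1 CPM in the 3 day 7 columns) and Saa3 (0.623, 0 and 69.5 CPM). Both are named below for their likeness to Ccl2 or Cxcl5, and the rise was thus not particular to chemokine ligands. The ligands' median ratio was 16.0, against 0.986 for all tested genes. As a percentage of the day 0 mean, the third column ranged between 5.18% for Cxcl5 and 74.3% for Cxcl10. Markers moved unevenly with this: 1 of the 9 tested preadipocyte markers (Ly6a) was in the third column at least 3 times the mean of the other two, and 1 of 10 adipocyte markers (Cfd). The summed preadipocyte markers were 1940, 3096 and 2309 CPM in the 3 day 7 columns, so that the third lay between the other two. Collagens weigh heavily in this sum, with Col3a1 alone at 1077, 1566 and 974 CPM. Taken singly, Dlk1 (50.9, 133 and 254 CPM), Pdgfra, Thy1, Ly6a and Acta2 were highest in the third column. Col1a1, Col3a1, Postn and Tagln were highest in the second. The third column also had the lowest total count. Its raw counts were the highest of the 3 day 7 columns for all 9 tested ligands, such as 396 for Cxcl5 against 14 and 11. The part of depth in its ligand levels was not tested.

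**Figure D3:**
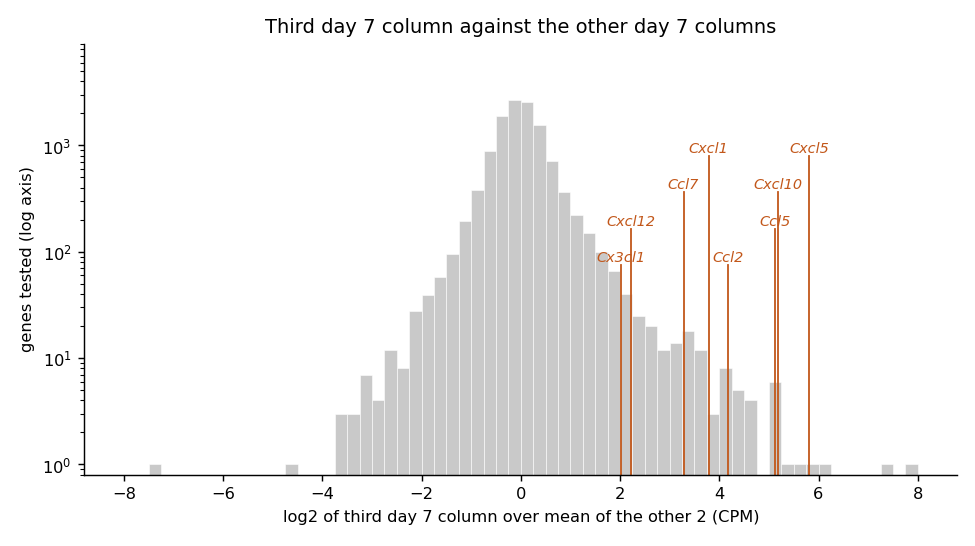
Ratio of the third day 7 column to the mean of the first and second, on a log2 axis, as a histogram over all tested genes with a level above 0 in both, with the number of genes on a log axis and lines for 8 of the chemokine ligands. The bulk of genes lies around a ratio of 0.986, and the marked ligands lie between 4.05 and 56.2.

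Levels of different genes can be compared only per length, here as CPM per kilobase of exon sequence in the GENCODE M21 annotation. At day 0 the order was Cxcl5 at 557 ± 81.6, Ccl2 at 176 ± 34.0, Cxcl12 at 159 ± 3.72, Ccl7 at 104 ± 9.40 and Cxcl1 at 101 ± 18.0 CPM per kilobase (SD, n = 3). Ccl2 and Cxcl12 did not differ beyond their spread in that order, nor did Ccl7 and Cxcl1. Cx3cl1 followed at 27.8 ± 3.22, then Ccl5 at 14.0 ± 1.32, Cxcl10 at 8.11 ± 2.03, Cxcl16 at 1.5 ± 0.458 and Ccl20 at 0.204 ± 0.0636 CPM per kilobase. At day 7 the order depended on the library. Cxcl12 was the highest ligand in the first and second columns, at 9.14 and 12.6 CPM per kilobase. In the third column Cxcl1 and Cxcl12 were side by side, at 51.1 and 50.5 CPM per kilobase. The exon length of Cxcl12 counts several isoforms, so its level per kilobase would be higher for its short form alone.

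The 9 tested ligands differed in how they changed over the 6 libraries. About 2 counts were added to each value before logs were taken, which makes the falls of low-count genes such as Cxcl16 look smaller. After each gene's log2 CPM was centred on its day 0 mean, Ccl5 and Cxcl10 were the closest pair, with a root mean square difference of 0.24. Cxcl12 and Cx3cl1 followed at 0.26, and Cxcl1 and Cxcl16 at 0.29. Ccl2 and Ccl7, which are neighbours on the chromosome, were 0.68 apart, and Cxcl5 and Cx3cl1 were the farthest pair at 3.79. Among the 7741 genes of at least 10 CPM on average, the nearest to Ccl2 were Serping1 (0.26), Ifit1 (0.33) and Rtp4 (0.35). The nearest to Cxcl12 were Rapgef3 (0.14), Trp63 (0.18) and Zfp618 (0.19). The nearest to Cxcl5 were Saa3 (1.04), Vstm2a (1.44) and Serpina3g (1.55), farther away than those of Ccl2 and Cxcl12. With the added counts, genes of low level cannot show a fall as large as that of Cxcl5. The larger distances therefore do not show that its pattern was particular. These distances over 6 libraries are descriptions.

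The start regions of 5 of the 10 ligands were in the RefSeq table of the GRCm38.p6 build, and 4 are shown. Those of Cxcl1 and Cxcl10 hold matches to inflammatory motifs, and those of Cxcl12 and Cx3cl1 hold none. Each region runs from 250 bases before to 50 bases after the start, 5′ to 3′ on the gene's strand, with motif matches in capitals. They lie at chr5:90890995-90891294 (Cxcl1, plus), chr5:92348840-92349139 (Cxcl10, minus), chr6:117168285-117168584 (Cxcl12, plus) and chr8:94771930-94772229 (Cx3cl1, plus).
Cxcl1: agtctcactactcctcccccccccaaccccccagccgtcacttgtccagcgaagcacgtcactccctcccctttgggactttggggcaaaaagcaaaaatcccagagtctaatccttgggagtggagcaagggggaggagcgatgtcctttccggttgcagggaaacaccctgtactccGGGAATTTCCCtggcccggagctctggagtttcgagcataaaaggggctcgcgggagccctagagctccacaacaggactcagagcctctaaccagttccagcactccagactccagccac
Cxcl10: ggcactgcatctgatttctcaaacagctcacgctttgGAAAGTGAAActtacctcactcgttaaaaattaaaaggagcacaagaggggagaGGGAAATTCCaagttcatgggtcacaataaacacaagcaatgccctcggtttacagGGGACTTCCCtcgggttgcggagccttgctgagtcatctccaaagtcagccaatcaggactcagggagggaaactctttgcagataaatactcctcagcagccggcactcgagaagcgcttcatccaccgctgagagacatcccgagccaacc
Cxcl12: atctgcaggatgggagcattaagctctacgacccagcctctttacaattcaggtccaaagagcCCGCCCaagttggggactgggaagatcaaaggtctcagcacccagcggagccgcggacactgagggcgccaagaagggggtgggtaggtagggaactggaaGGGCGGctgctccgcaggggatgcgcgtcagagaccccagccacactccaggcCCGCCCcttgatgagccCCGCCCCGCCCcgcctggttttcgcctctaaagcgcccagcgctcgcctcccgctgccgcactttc
Cx3cl1: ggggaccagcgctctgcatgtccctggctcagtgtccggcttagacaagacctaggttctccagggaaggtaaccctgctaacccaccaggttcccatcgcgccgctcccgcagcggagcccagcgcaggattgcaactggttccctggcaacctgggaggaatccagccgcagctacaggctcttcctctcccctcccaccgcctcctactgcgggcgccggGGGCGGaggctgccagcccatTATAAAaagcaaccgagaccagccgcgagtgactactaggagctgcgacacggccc
The motifs searched on both strands were the kB motif, the interferon-response core (GAAA, any 2 bases, GAAA), the GAS motif TTCNNNGAA, TATAAA and the GC box GGGCGG. Cxcl1 holds a pair of overlapping kB matches between -71 and -61. Cxcl10 holds kB matches starting at -159 and -103 and an interferon-response core at -213. Ccl20, not shown, holds a kB match at -80. Cxcl12 holds no match to the kB, interferon-response, GAS or TATAAA motifs and 5 GC boxes, of which 2 overlap. Cx3cl1 holds TATAAA at -6 to -1, directly before the start, and 1 GC box starting at -27. Of the 32851 promoter windows of the same length, 4.51% hold a kB match, 3.44% the interferon-response core, 8.30% the GAS motif, 13.6% TATAAA and 35.7% a GC box. A match describes letters, not a bound site.

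Most other chemokine ligands were barely expressed. Of 28 further ligands, 10 had no count in any library, 22 were under 1 CPM on both days and 5 could be tested. Of these, 4 were lower at day 7 and 1 was higher. Ccl8 (log2 fold change -4.11, edgeR adjusted p = 0.00053), Ccl9 (-2.25, adjusted p = 0.0017) and Ccl27a (-1.43, adjusted p = 0.011) fell, and Ccl25, a ligand of thymus and gut, rose (1.65, adjusted p = 0.0037). Ccl8 rested on 4 counts at day 7, and its log2 fold change was -4.94 without the first day 7 column, which left 1 count. Without the same column that of Ccl9 was -2.91, and Ccl27a lost its call without day 0 replicate 2 (edgeR adjusted p = 0.061). Cxcl15 had 0 counts at day 7 and 58 at day 0, at least 17.1-fold lower. None of the 5 was in the third day 7 column at 3 times the mean of the other two or more. Several lie in the clusters that hold the 10 ligands. Between Cxcl5 (421 counts at day 7 and 40660 at day 0) and Cxcl1 (891 and 7330) lie Ppbp, with 1 count at day 7 and 45 at day 0, and Pf4, with 0 at day 7 and 8 at day 0. In this chromosome 5 cluster, between Cxcl5 and Cxcl2, no ligand other than Cxcl5 and Cxcl1 had more than 58 counts on either day. Next to Ccl7 on chromosome 11, 10.3 kb away, Ccl11 had 10 counts at day 7 and 16 at day 0.

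The receptors of these ligands were almost silent in the same cells. Of 22 receptor genes found in the table, 11 had no count in any library and 1 could be tested. Cxcr4, Ccr1, Ccr2, Ccr3, Ccr6, Cxcr3 and Cxcr6 had 0 counts in all 6 libraries. Cxcr2 had 3 counts at day 7 and 0 at day 0, and Cx3cr1 had 2 at day 7 and 11 at day 0. The exception was Ackr3, which takes up Cxcl12 without G protein signalling. Ackr3 was at 0.34, 1.12 and 1.49 CPM at day 7, against 39.3, 41.9 and 42.2 CPM at day 0, with no overlap between the days. It fell by 5.59 on the log2 scale (SE 0.35, edgeR adjusted p = 1.3e-05), and by 4.99 without the first column.

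Proteases and peptidases that cut chemokines were also examined, with 13 of 15 tested, 8 lower at day 7, 2 higher and 3 not past the test. Adam10, which sheds Cx3cl1 and Cxcl16 from the membrane, was at 67.1, 62.0 and 68.8 CPM at day 7, against 155, 151 and 149 CPM at day 0, and fell (log2 fold change -1.20, edgeR adjusted p = 4.6e-05). Adam17, the other main sheddase of these ligands, had a log2 fold change of -0.12 (edgeR adjusted p = 0.49), and of -0.27 (adjusted p = 0.026) without the third column. Dpp4, which trims Cxcl10 and Cxcl12, had 0 counts in all libraries. Mmp3 and Mmp9, matrix metalloproteinases, fell most (log2 fold changes -4.91 and -4.80, edgeR adjusted p = 4.4e-05 and 0.00089). Both were in the third day 7 column at least 3 times the mean of the other two, as was Mmp13, although Mmp3 was at 1.42, 0.407 and 2.99 CPM in the 3 columns and Mmp13 at 1.19, 0.102 and 2.04 CPM, so that the first column was closer to the third. The log2 fold change of Mmp9 was -6.67 without the third column and -4.11 without the first. The carboxypeptidases Cpm and Cpd rose (2.31 and 1.9, edgeR adjusted p = 0.0055 and 0.00011).

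Among 30 tested genes of the NF-kB pathway and its inducers, 14 were lower at day 7, 5 higher and 11 not past the test, with a median log2 fold change of -0.30. Nfkbie and Nfkbia, inhibitors of NF-kB that are also its targets, fell (log2 fold changes -4.67 and -1.44, edgeR adjusted p = 2e-05 and 0.0064). Rela, the main activating subunit, had a log2 fold change of -0.07 (edgeR adjusted p = 0.67). The other subunit genes, Nfkb1, Nfkb2, Relb and Rel, fell. Their log2 fold changes were -1.89, -1.54, -1.93 and -0.93 (edgeR adjusted p = 8.5e-05, 4.1e-05, 0.0011 and 0.0066). Tnfaip3, another NF-kB inhibitor, had a log2 fold change of -0.35 (edgeR adjusted p = 0.26), which was -0.71 (adjusted p = 0.0014) without the third column. Tnf and Il1b had no counts in any library, and Il1a had 0 counts at day 7 and 58 at day 0, at least 17.1-fold lower. Zfp36, which destabilises inflammatory mRNAs, and Traf6, an adaptor of Toll-like and interleukin-1 receptors, rose (1.87 and 0.87, edgeR adjusted p = 0.0079 and 0.0099), Zfp36 by 1.27 without the third column. Of the 30, Tlr2 alone was in the third day 7 column at least 3 times the mean of the other two. Among 13 tested interferon genes, 9 were lower, 1 higher and 3 not past the test, with a median of -1.22. Irf7 and Irf5 fell most (-3.15 and -3.11, edgeR adjusted p = 6.7e-05 and 0.002), Irf1 less (-0.46, adjusted p = 0.018), and Ifngr1, a receptor chain for interferon gamma, rose (1.04, adjusted p = 0.009). The log2 fold change of Irf5 was -3.77 without the third column and -2.43 without the first, and Irf1 lost its call without day 0 replicate 1 or 3 (edgeR adjusted p = 0.056 and 0.064).

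**Figure D4:**
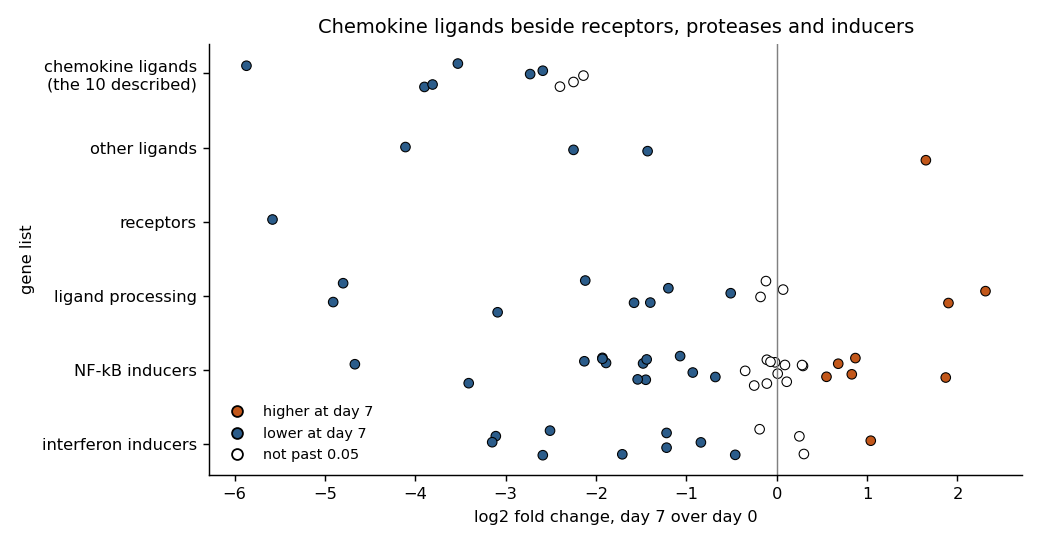
Log2 fold change at day 7 over day 0 of the tested genes in each list, 1 point per gene, filled where the adjusted p was under 0.05, with genes at 0 counts on either day not drawn. The chemokine ligands lie between -5.87 and -2.14, while the genes of the NF-kB list lie on both sides of 0 around a median of -0.30.

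Markers of leukocytes and endothelium were examined because such cells also make or answer chemokines. Of 15 found in the table, 1 was tested (Cd14, log2 fold change -2.09, edgeR adjusted p = 0.0015), Ptprc had 1 count over all libraries, and Cd3e and Ly6g had 0. Cd68, a macrophage marker, had 48 counts at day 7 and 11 at day 0, and Pecam1, an endothelial marker, had 32 at day 7 and 13 at day 0. Both were untested and higher in every day 7 library than in any day 0 library. Among all tested genes, 4226 of 12354 were likewise higher without overlap. Other untested markers of this list went the other way. From day 0 to day 7, summed counts fell from 26 to 2 for Lyz2, from 29 to 2 for Aif1 and from 18 to 4 for Csf1r. These too did not overlap between the days, so the list as a whole showed no common direction. The 15 summed to 4.38 to 7.88 CPM at day 7 and 12.6 to 13.8 CPM at day 0. Cd14 carried this difference, since the other 14 summed to 2.72 to 3.40 CPM at day 7 and 2.36 to 3.42 CPM at day 0. Preadipocyte markers fell in 9 of 9 tested, with sums of 1940 to 3096 CPM at day 7 and 8182 to 9773 CPM at day 0. The part of this loss of preadipocyte transcripts in the levels of the 10 ligands was not tested.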

How the data were processed

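Total RNA of 3 day 7 and 3 day 0 libraries was prepared with a stranded total RNA kit and sequenced on a NovaSeq 6000, per the labels' protocols. The authors deposited estimated counts per gene, not normalized. Trim Galore 0.6.7, STAR 2.7.10a, Salmon 1.9.0 and GRCm38 are named, with no roles, per the submitters' processing notes, and the annotation is not given in the sources used here. Columns were matched to samples by name, and the 3 day 7 columns, which share 1 replicate number, to their group only. The other 10 value columns were not used.

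Counts were rounded to whole numbers, filtered with filterByExpr (minimum count 10, minimum total 15), scaled by TMM and tested with edgeR 4.0.16 (quasi-likelihood, Benjamini-Hochberg, threshold 0.05) in R 4.3.3 on all 6 libraries with no covariate. The steps were tested on simulated data. Alternatives were other scalings, other filters, DESeq2 1.42.0, limma-voom (limma 3.58.1) and leaving out each library. Each SE of an edgeR log2 fold change was derived from the test, as its absolute value divided by the square root of the test's F statistic. It is not a standard error that edgeR reports. Values per kilobase use GENCODE M21 exons. Floors are 3 counts per group and cover counting error only.

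The ligands and gene lists were chosen with earlier results of these data known. Named in the text are all 10 ligands, a fixed set of receptors, proteases and regulators, other ligands of at least 1 CPM on either day, the 2 most changed genes of each list in each direction, and the 3 genes most like Ccl2, Cxcl5 and Cxcl12. Genes outside this rule (Pf4, Ccl11, Mmp13, Tlr2, Tnf, Il1b, Nfkb1, Nfkb2, Relb, Rel, Cfd and the preadipocyte and leukocyte markers) were named after their values were seen. Ackr1 was not found in the table. Members had no fractional counts, while Ccl27a, Ly6a and Acta2 did, so reads shared with other genes could affect those genes. Some genes of the fixed set are not reported here.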

Additional observations from a re-analysis of the deposited data

How the results depend on the processing

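No ligand changed direction under any alternative run. The number of ligands called lower was 6 of 9 with all libraries and 6 of 9 under RLE, upper-quartile and TMM scaling without the 10 most abundant rows. Over all genes, 3666 of 12354, 3848 of 12354 and 3597 of 12302 were called lower in those 3 runs. The number was 9 of 9 under total-count scaling and limma-voom and 5 of 9 with DESeq2. It was 10 of 10 with no filter on low counts, where Ccl20 entered with an edgeR adjusted p of 0.023. The background shares of these 4 runs are given above. With a filter of 10 CPM, which removed Cxcl16, it was 5 of 8, against 2570 of 8041 over all genes. Leaving out 1 library gave 6 to 9 ligands, and only the third day 7 column moved the number. Genes called higher numbered 3802, and 2355 under total-count scaling. Leaving out 1 library gave 3118 to 4185 genes higher, 2999 to 4044 lower and 6125 to 8229 in all. The cause of these shifts was not tested. No paired analysis was possible because the 3 day 7 columns carry the same replicate number. Low counts limit the fold changes of Ccl20 and Cxcl16, whose day 7 counts are 0 in at least 2 libraries. The 10 day 7 counts of Cxcl16 were all in the third column, which has the lowest total.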
